A study of Mus musculus with 8 samples.

Results

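The stromal vascular fraction (SVF) of gonadal white adipose tissue (WAT) was examined for mast cell genes. All rows of the deposited gene count table whose name was Cpa3, Cma1, Mcpt4, Tpsb2, Tpsab1, Kit, Fcer1a, Ms4a2 or Hdc were taken, which gave 9 of 54532 genes. All 9 passed the filter on low counts that left 15963 genes for testing. The libraries came from male C57BL/6J mice that were 6 weeks old, as the labels give it, when a high-fat diet (HFD, 60% of calories from fat) began; the study's methods give older ages for its mice in general. After 12 weeks of HFD every mouse was moved to a normal chow diet (NCD, 16% of calories from fat), and from then on received an antibody (Ab) at 2 mg/kg every 2 weeks for 6 weeks. The control Ab-treated group (libraries numbered 1, 2, 6 and 9) received an isotype control IgG1k, and the anti-BAFF Ab-treated group (libraries 5, 7, 8 and 10) received the antibody Sandy-2 against BAFF, a survival factor for B cells. Groups were formed from a glucose tolerance test, and the SVF of a collagenase-digested fat pad was taken at week 18. Each library number is read here as a mouse, so n = 4 in each group, and there was no group kept on HFD or without antibody.

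Mast cells are long-lived tissue immune cells whose cytoplasm is packed with granules. They grow under stem cell factor, which binds the receptor tyrosine kinase Kit, and they carry IgE on a high-affinity receptor made of an alpha chain (Fcer1a), a beta chain (Ms4a2) and a signalling gamma chain that other leukocytes also use. When antigen cross-links that IgE, the granules release histamine, made from histidine by the enzyme Hdc, together with proteases held on heparin: tryptases (Tpsb2, Tpsab1), chymases (Mcpt4, Cma1) and carboxypeptidase A3 (Cpa3). In the mouse these proteases mark connective tissue mast cells, while Mcpt1 and Mcpt2 mark mucosal mast cells and Mcpt8 marks basophils.

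RefSeq promoter sequence was available here for 7 of the 9 genes; Tpsb2 and Tpsab1 were the other two. The 250 bases before the start given for each gene in the RefSeq promoter table were searched on both strands for GATAA, which reads TTATC on the other strand, the core of the sites bound by GATA factors such as the mast cell regulator Gata2. The letters were present before 5 of the 7 genes (Cpa3, Cma1, Mcpt4, Fcer1a and Ms4a2) and in 22.58% of the 32851 windows of the same length before all RefSeq starts. Ms4a2 had 3 matches and the other 4 genes had 1 each, while the windows of Kit and Hdc had none. The start given for Hdc lies inside the gene as RefSeq and the deposited table draw it, so its window does not describe the bases before the gene. RefSeq draws Ms4a2 up to base 11623790 of chromosome 19, inside its window (11623720-11623969, minus strand). Its matches 37 and 10 bases before the start given thus lie inside the gene as RefSeq draws it. The match 224 bases before that start lies outside the gene. The E-box letters CATGTG, which read CACATG on the other strand, stood before Fcer1a alone of the 7, against 12.25% of all windows, and the E-box CACGTG, which reads the same on both strands, stood before none, against 6.021%. A match describes the letters of the window and no binding was measured. The windows of Mcpt4 (chr14:56062311-56062560), Cma1 (chr14:55944676-55944925) and Fcer1a (chr1:173227230-173227479), all on the minus strand of GRCm38.p6, are shown 5′ to 3′ because they place the match before the chymase genes, which lie in the same locus, beside that before the receptor chain, with the match in capitals.
Mcpt4: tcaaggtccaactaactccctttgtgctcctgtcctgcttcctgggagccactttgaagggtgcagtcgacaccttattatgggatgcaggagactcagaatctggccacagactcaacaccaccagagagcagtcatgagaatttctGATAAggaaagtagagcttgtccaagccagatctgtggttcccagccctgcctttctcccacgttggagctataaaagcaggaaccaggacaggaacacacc
Cma1: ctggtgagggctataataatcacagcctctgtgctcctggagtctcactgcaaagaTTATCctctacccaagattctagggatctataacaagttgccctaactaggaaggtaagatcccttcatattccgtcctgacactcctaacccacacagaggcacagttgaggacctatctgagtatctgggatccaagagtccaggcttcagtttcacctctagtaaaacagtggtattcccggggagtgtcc
Fcer1a: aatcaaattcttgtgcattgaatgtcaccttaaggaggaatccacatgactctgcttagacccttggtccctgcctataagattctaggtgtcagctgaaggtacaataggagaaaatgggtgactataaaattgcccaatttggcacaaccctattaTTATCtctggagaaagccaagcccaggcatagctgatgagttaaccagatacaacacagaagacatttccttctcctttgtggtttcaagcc
The match began 102 bases before the start of Mcpt4, 194 bases before that of Cma1 and 92 bases before that of Fcer1a, so Mcpt4 and Cma1 did not share its position.

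The libraries held 13562340 to 18548024 counts, and 3 counts in a library corresponded to 0.165 to 0.219 CPM (counts per 1000000 counts of the library's scaled size). The B cell markers, which check the treatment, summed to 35.9 to 41.6 CPM with the control Ab and to 9.65 to 22.8 CPM with the anti-BAFF Ab. Epididymis genes, which belong to the organ that lies against the gonadal fat pad, stood apart in control Ab-treated mouse 2 and anti-BAFF Ab-treated mouse 7, where 8 such genes summed to 2113 and 2118 CPM, against 18.2 to 830 CPM in the other 6 mice; 6 of the 8 passed the filter on low counts and Lcn9 was at 0 in every mouse. Results that rest on mice 2 and 7 are therefore given with and without them. Control mouse 1 stood apart from the other control mice in other genes. Its macrophage marker sum (4450 CPM) was the highest of the 8 mice, and its mesothelial marker sum (245 CPM) was the lowest.

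All 10 mast cell markers checked, which include 7 of the 9 genes, passed the filter on low counts. Some related proteases were close to 0. The mucosal mast cell proteases Mcpt1 and Mcpt2 reached 3 and 2 counts in any mouse, Mcpt9 reached 1 and the basophil protease Mcpt8 reached 4. Melanocytes also carry Kit, but their defining enzyme Tyr was at 0 in all 8 mice and the melanocyte markers summed to 1.80 to 4.68 CPM in the control Ab-treated and 0.741 to 2.54 CPM in the mice given anti-BAFF Ab. The basophil markers summed to 18.0 to 23.6 and 21.9 to 29.1 CPM in the same order. Of these, Prss34 had 36 to 115 counts and Cd200r3 37 to 95 counts in a mouse, so the low Mcpt8 did not hold for all of them. Itga2b was the largest part of this sum in every mouse, at 10.1 to 16.2 CPM. Prss34 is a tryptase of mast cells too, so these sums do not by themselves show basophils. Of the mast cell proteases, those of the connective tissue type were abundant, while those of the mucosal type stayed at or below 3 counts.

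Per length, 4 of the 5 granule protease genes were the most abundant of the 9 genes, while the tryptase gene Tpsab1 lay below Hdc. Mean FPKM (CPM divided by the deposited gene length in kilobases) over the 8 mice fell from 254 for Tpsb2 through 210 for Mcpt4, 193 for Cma1 and 87.2 for Cpa3 to 21.0 for Hdc, 13.9 for Tpsab1, 13.4 for Fcer1a, 7.71 for Kit and 1.41 for Ms4a2. By FPKM Tpsb2 was above 99.02% of the genes tested, Cpa3 above 96.55%, Kit above 65.04% and Ms4a2 above 26.94%. Neighbours in this order had ranges over mice that overlapped, except Cpa3 above Hdc and Kit above Ms4a2. Within a mouse the order was firmer, since each gene exceeded the next in all 8 mice, apart from Mcpt4 over Cma1 (7 of 8 mice) and Tpsab1 over Fcer1a (4 of 8 mice). The low FPKM of Ms4a2 rested on few reads, with a counting error of 19.2% in the mouse with its fewest counts, against 1.99% for Tpsb2.

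All 9 genes had a higher fitted level with anti-BAFF Ab, by 1.29- to 1.50-fold, and none passed the test after adjustment over all genes. Their median log2 fold change was 0.48, against 0.00 over all genes tested. A log2 fold change above 0 was found for 51.5% of all genes tested. The adjusted threshold of 0.05 was passed by 0.0564% of the genes tested in either direction and by 0.0% in the higher direction (edgeR's quasi-likelihood test with Benjamini-Hochberg adjustment). At an unadjusted p under 0.05, edgeR called 4 of the 9 genes higher (Cpa3, Mcpt4, Hdc and Kit), against 0.664% of all genes tested. None was called lower, against 1.24%. The 9 genes varied together over the same mice (median Pearson's r of log2 CPM 0.92). Counts out of the 9, here and below, are therefore not separate observations. The genes were also chosen with earlier results of these data known. Mouse 7 had the highest CPM and mouse 2 the lowest for every one of the 9 genes, whereas mouse 7 was highest for 9.93% of all genes tested, mouse 2 was lowest for 9.85%, and both held for 1.11%. In bulk SVF, more mast cells, more of these mRNAs per mast cell and a change in the other cells of the SVF cannot be told apart.

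**Figure D1:**
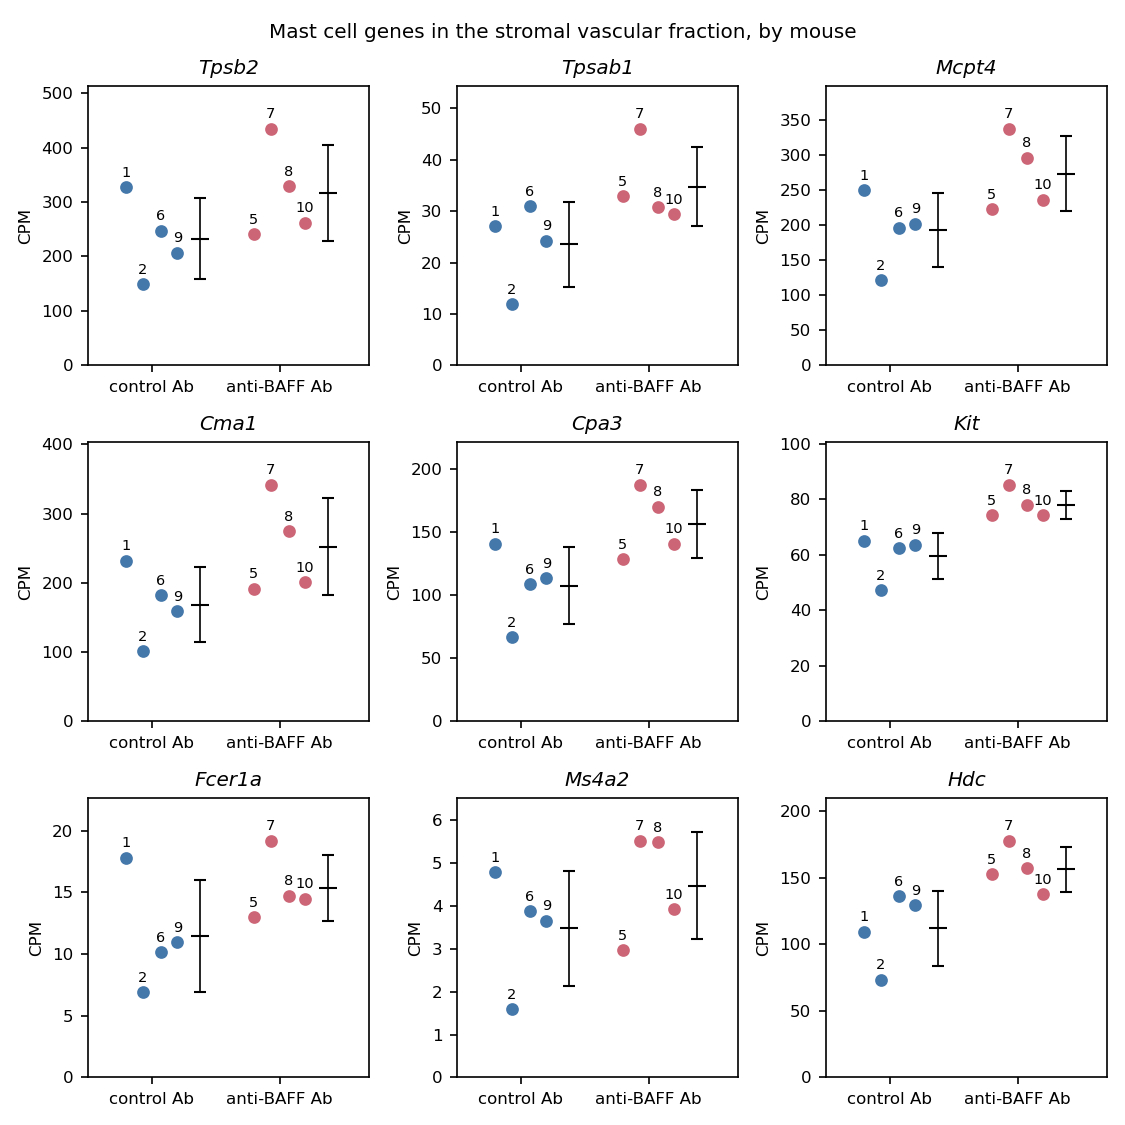
CPM (vertical axes, starting at 0) of the 9 mast cell genes in each control Ab-treated mouse (blue) and anti-BAFF Ab-treated mouse (red), with mouse numbers beside the points and the group mean ± SD (n = 4) as the black bar to the right. Mouse 2 is lowest and mouse 7 highest in every panel, and the groups do not overlap for Kit and Hdc.

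The tryptases are trypsin-like proteases that are active as heparin-bound tetramers. Tpsb2 (ENSMUSG00000033825, chr17:25366550-25368094, plus strand) measured 327, 149, 247 and 207 CPM in control Ab-treated mice 1, 2, 6 and 9 and 241, 435, 329 and 262 CPM in anti-BAFF Ab-treated mice 5, 7, 8 and 10; this order of mice is kept below. The groups overlapped, since control mouse 1 lay above mice 5 and 10, and control mouse 6 lay above mouse 5. Group means were 233 ± 74.5 and 317 ± 87.2 CPM (SD, n = 4 each), a log2 fold change of 0.44 (SE 0.25, edgeR adjusted p = 1.00). Tpsab1 (ENSMUSG00000024173, chr17:25343245-25345562, minus strand), a neighbour of Tpsb2, measured 27.1, 11.9, 30.9 and 24.2 CPM against 32.9, 46.1, 30.7 and 29.5 CPM. Control mouse 6 lay above mice 8 and 10, so these groups overlapped as well, at means of 23.5 ± 8.25 and 34.8 ± 7.65 CPM (SD, n = 4 each). The log2 fold change of Tpsab1 was 0.57 (SE 0.27, edgeR adjusted p = 1.00). Tpsab1 is listed as protein coding in the deposited table and as a transcribed pseudogene in RefSeq GRCm38.p6, whose sequence is from C57BL/6J. By the RefSeq listing its reads need not stand for a protease in these C57BL/6J mice. The tryptase genes are closely alike, so reads may have been shared between them and their separate levels are uncertain. Per length, Tpsab1 amounted to 0.0411 to 0.0706 of Tpsb2, with group means of 0.0522 ± 0.0120 and 0.0579 ± 0.00938 (SD, n = 4 each).

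The chymases cleave after aromatic residues, although mouse Cma1 is known for an elastase-like specificity; both lie in the chymase locus of chromosome 14. Mcpt4 (ENSMUSG00000061068, chr14:56059629-56062313, minus strand) measured 250, 122, 196 and 202 CPM in the control Ab-treated mice and 223, 338, 297 and 236 CPM in the anti-BAFF Ab-treated mice. Control mouse 1 lay above mice 5 and 10, and the other 3 control mice lay below all anti-BAFF Ab-treated mice. Means were 193 ± 52.9 and 273 ± 53.7 CPM (SD, n = 4 each), with a log2 fold change of 0.50 (SE 0.22, edgeR adjusted p = 1.00). Cma1 (ENSMUSG00000022225, chr14:55941451-55944675, minus strand) measured 232, 101, 182 and 159 CPM against 192, 342, 275 and 201 CPM. Its pattern over mice was that of Mcpt4, with control mouse 1 again above mice 5 and 10, at means of 169 ± 54.1 and 252 ± 70.3 CPM (SD, n = 4 each). The log2 fold change of Cma1 was 0.58 (SE 0.26, edgeR adjusted p = 1.00), the largest fitted among the 9 genes. Cma1 also had the largest spread over the 8 mice, with a coefficient of variation of 34.8%, while the ratio of Mcpt4 to Cma1 per length stayed between 0.973 and 1.25 in every mouse (coefficient of variation 7.91%). Chymase genes are also alike in sequence, so shared reads may bear on their separate levels and on this ratio, which was not tested.

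Cpa3 (ENSMUSG00000001865, chr3:20215620-20242181, minus strand), the carboxypeptidase stored with the proteases above, measured 141, 66.9, 109 and 114 CPM against 129, 188, 170 and 141 CPM. All anti-BAFF Ab-treated mice but mouse 5 lay above the highest control mouse, mouse 1, although mouse 10 and mouse 1 were nearly equal. Means were 108 ± 30.6 and 157 ± 27.0 CPM (SD, n = 4 each), with a log2 fold change of 0.55 (SE 0.21, edgeR adjusted p = 1.00). Hdc (ENSMUSG00000027360, chr2:126593667-126619299, minus strand), which makes histamine, measured 109, 73.6, 136 and 129 CPM against 153, 178, 157 and 138 CPM. Every anti-BAFF Ab-treated mouse lay above every control mouse, although mouse 10 (138 CPM) and control mouse 6 (136 CPM) nearly met. The means of Hdc were 112 ± 28.1 and 156 ± 16.7 CPM (SD, n = 4 each), with a log2 fold change of 0.48 (SE 0.18, edgeR adjusted p = 1.00). Hdc was low for the level of the proteases in control mouse 1, where it amounted to 0.184 of Cpa3 per length, against 0.219 to 0.297 in the other 7 mice.

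Among the receptors, Kit (ENSMUSG00000005672, chr5:75574916-75656722, plus strand) measured 65.1, 47.2, 62.4 and 63.7 CPM in the control Ab-treated mice and 74.2, 85.2, 78.0 and 74.2 CPM in the anti-BAFF Ab-treated mice. Every control mouse lay below every anti-BAFF Ab-treated mouse, and control mouse 2 lay well below the other 3. Means were 59.6 ± 8.35 and 77.9 ± 5.21 CPM (SD, n = 4 each), with a log2 fold change of 0.39 (SE 0.11, edgeR adjusted p = 1.00). Kit had the smallest unadjusted p of the 9 genes and also the smallest spread over mice (coefficient of variation 17.1%). Kit and Hdc were the 2 of 9 genes whose groups did not overlap in this direction, against 0.526% of all genes tested.

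The alpha chain of the IgE receptor, Fcer1a (ENSMUSG00000005339, chr1:173221284-173227214, minus strand), measured 17.8, 6.92, 10.2 and 11.0 CPM against 13.0, 19.2, 14.8 and 14.5 CPM. Control mouse 1 was exceeded by mouse 7 alone, and the means were 11.5 ± 4.58 and 15.4 ± 2.67 CPM (SD, n = 4 each). The log2 fold change of Fcer1a was 0.42 (SE 0.26, edgeR adjusted p = 1.00). The beta chain Ms4a2 (ENSMUSG00000024680, chr19:11615523-11623719, minus strand) measured 4.78, 1.60, 3.88 and 3.65 CPM against 2.96, 5.52, 5.48 and 3.92 CPM. Mouse 5 lay below 3 of the 4 control mice, and the means were 3.48 ± 1.34 and 4.47 ± 1.25 CPM (SD, n = 4 each). The log2 fold change of Ms4a2 was 0.36 (SE 0.34, edgeR adjusted p = 1.00), the smallest of the 9 genes. The gamma chain gene Fcer1g, which macrophages also use, had a log2 fold change of 0.06 (SE 0.17, edgeR adjusted p = 1.00).

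Leaving out mice 2 and 7, whose epididymis genes were high, lowered all 9 fitted differences. Mouse 2 was the lowest control mouse and mouse 7 the highest anti-BAFF Ab-treated mouse for every gene. Leaving both out therefore lowers each difference in any case. The size of what remained is lowered by the same choice, so the values without them only describe the other 6 mice. The median log2 fold change became 0.20, the range ran from -0.01 for Ms4a2 to 0.26 for Cpa3, and 8 of 9 genes stayed above 0, against 45.7% of all genes tested in those 6 mice. Kit remained at an unadjusted p under 0.05 (log2 fold change 0.23, SE 0.08, edgeR adjusted p = 1.00), while Cpa3, Mcpt4 and Hdc did not. Without mice 2 and 7, 0.309% of all genes tested passed this threshold in the higher direction and 0.0189% passed the adjusted threshold in either direction. Leaving out control mouse 2 alone gave a median of 0.32 and leaving out anti-BAFF Ab-treated mouse 7 alone gave 0.37, whereas leaving out control mouse 1 gave 0.63. Without mouse 7, or without mouse 8, Kit alone of the 9 genes kept an unadjusted p under 0.05, against 0.557% and 0.319% of all genes tested in the higher direction. Without control mouse 1, 6 of the 9 genes had one, but the share of all genes tested went to 5.33%. Without mice 2, 5 and 7, a setting that was added after the data had been seen, the 9 genes had a median of 0.21 and none had an unadjusted p under 0.05, against 0.491% of all genes tested in the higher direction.

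**Figure D2:**
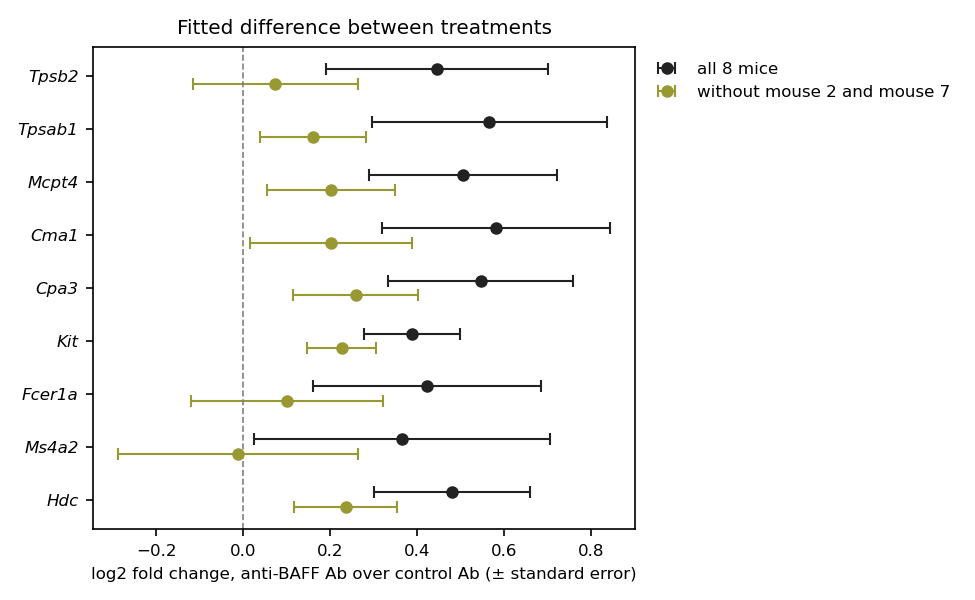
Fitted log2 fold change (horizontal axis, anti-BAFF Ab over control Ab, bars ± SE) of the 9 mast cell genes with all 8 mice (black) and without mice 2 and 7 (olive). Every black point lies to the right of 0, between 0.36 and 0.58, and every olive point lies closer to 0 than its black partner. Mouse 2 was the lowest and mouse 7 the highest for every gene, so the direction of this shift was set by the choice of mice.

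Summed over the 9 genes, CPM was 1174, 581, 978 and 914 in the control Ab-treated mice and 1059, 1636, 1356 and 1100 in the mice given anti-BAFF Ab, or 0.0586% to 0.168% of all counts in a mouse. Control mouse 1 lay above mice 5 and 10, so the groups overlapped. The means were 912 ± 247 and 1288 ± 267 CPM (SD, n = 4 each), which differed by 376 CPM or 1.41-fold; without mice 2 and 7 the difference was 150 CPM or 1.15-fold. The 5 protease genes made up 77.1% to 83.2% of the sum in each mouse. Summed epididymis genes were 18.2, 2113, 830 and 123 CPM in the control Ab-treated and 758, 2118, 150 and 75.9 CPM in the mice given anti-BAFF Ab. The mice with the lowest and the highest mast cell sum were the 2 with the highest epididymis sum, and the part of the epididymis RNA in the mast cell values was not tested. Neutrophil markers, which were highest in mouse 5 (230 CPM against 35.4 to 102 CPM in the other 7 mice), were 40.1 and 52.2 CPM in mice 8 and 7, the 2 mice with the highest mast cell sums. These markers did not move together. Ltf made up 73.3 CPM of the sum in mouse 6 and 23.9 CPM in mouse 7. S100a8 was at 0.951 and 1.41 CPM in those mice. In mouse 5 S100a8 was at 35.5 CPM, while Retnlg was at 1.28 CPM, against 3.10 CPM in mouse 1.

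**Figure D3:**
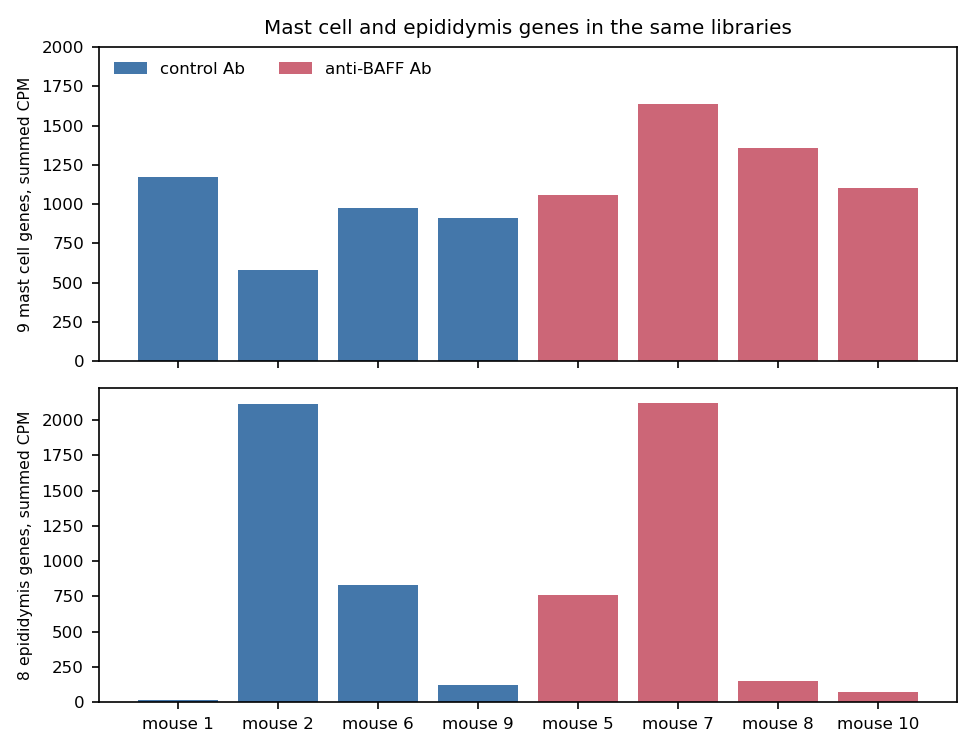
Summed CPM (vertical axes, starting at 0) of the 9 mast cell genes (top) and of 8 epididymis genes (bottom) in each mouse, control Ab-treated in blue and anti-BAFF Ab-treated in red. Mouse 2, with the lowest mast cell sum (581 CPM), and mouse 7, with the highest (1636 CPM), have the highest epididymis sums, at 2113 and 2118 CPM.

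The 9 genes varied together over the mice. Over the 36 pairs of genes, Pearson's r of log2 CPM over 8 mice had a median of 0.92 and ran from 0.71 to 0.997, and 35 pairs had an adjusted p under 0.05 by an exact permutation test over the pairings (23 pairs by Spearman's rho, whose median was 0.88). Cpa3 and Mcpt4 were the closest pair, with r = 0.997 and rho = 0.98 (two-sided exact permutation p = 4.96e-05 and 0.000397, adjusted p = 0.000893 and 0.00286). Fcer1a and Hdc were the least close, at r = 0.71 (exact permutation p = 0.0520, adjusted p = 0.0520). As deviations from the group means the median r was 0.91, with a range of 0.54 to 0.996.

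Much of this correlation rested on mice 2 and 7, which were the 2 farthest from the median for every pair. Leaving out the most extreme mice narrows the range of values, which by itself tends to lower r. Without them the median r over the 36 pairs was 0.63, with a range of -0.31 to 0.99 and 16 pairs above 0.7. Cpa3 and Mcpt4 kept r = 0.99 in the remaining 6 mice, and Cpa3 and Cma1 kept r = 0.92, whereas Fcer1a and Hdc went to -0.31. Over all 8 mice Tpsab1 was closest to Hdc (r = 0.95) and Kit (r = 0.93), not to its neighbour Tpsb2 (r = 0.87). Without mice 2 and 7 its r was 0.66 with Hdc, 0.56 with Kit and 0.26 with Tpsb2.

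**Figure D4:**
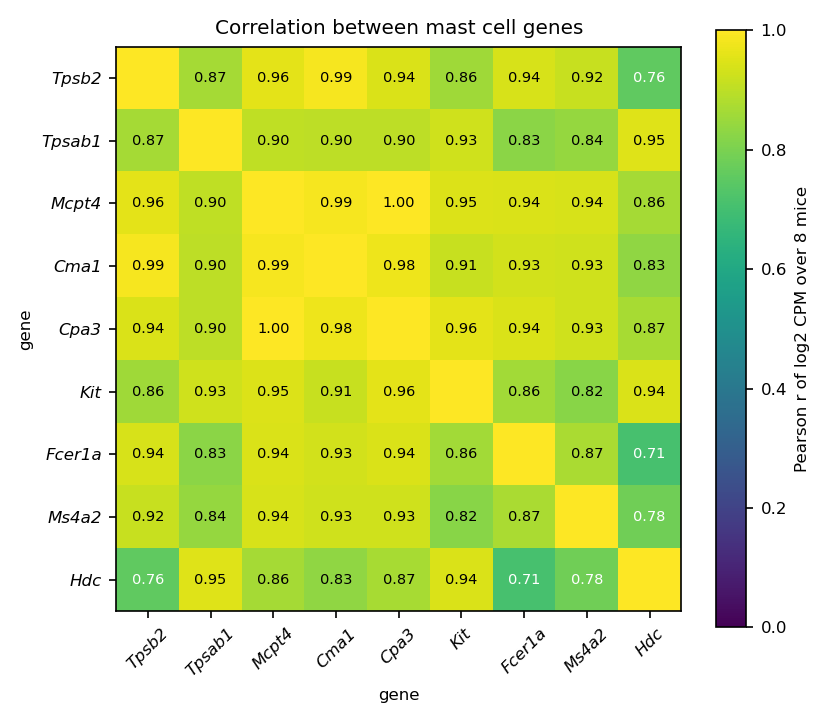
Pearson's r of log2 CPM over 8 mice for each pair of the 9 mast cell genes (gene names on both axes, colour from 0 to 1, values printed in the cells). Among the proteases Tpsb2, Mcpt4, Cma1 and Cpa3 r runs from 0.94 to 0.997, and Hdc has its lowest value, 0.71, with Fcer1a.

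Of 14932 genes outside the 9 with a mean log2 CPM of at least 0, the 8 whose log2 CPM was most like the mean profile of the 9 over the 8 mice are given as a description. Tph1, which starts serotonin synthesis, was the most alike at r = 0.96, from 6.44 to 30.3 CPM, with mouse 2 lowest and mouse 7 highest. Gzmb, a granule serine protease of cytotoxic cells, followed at r = 0.96, from 7.92 to 25.4 CPM. Il1rl1, the receptor for IL-33 (r = 0.94), Mrgprb2, a receptor for basic secretagogues (r = 0.94), and Hpgds, which makes prostaglandin D2 (r = 0.93), were among the 8, as were Zfp729b (r = 0.95), Dlx4 (r = 0.94) and Adcyap1r1 (r = 0.94). Mouse 2 was lowest for all 8, and r as deviations from the group means ran from 0.90 to 0.94.

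Of 8 lists of related genes, 7 had a lower median log2 fold change than the 9 mast cell genes, and no gene of these lists passed the adjusted threshold. For the counts given for these lists, the shares over all genes tested were 51.5% with a log2 fold change above 0. At an unadjusted p under 0.05 in edgeR, 0.664% were higher. Of 3 other mast cell and basophil proteases tested, all had a log2 fold change above 0 (median 0.58), and 1 had an unadjusted p under 0.05: Prss34, a basophil and mast cell tryptase, at 3.55 ± 0.899 and 5.42 ± 0.928 CPM (SD, n = 4 each) and a log2 fold change of 0.61 (SE 0.23, edgeR adjusted p = 1.00). The 7 further mast cell receptors all lay above 0 (median 0.33). Il1rl1, the most abundant of them by CPM, stood at 67.2 ± 14.2 and 84.2 ± 7.40 CPM (SD, n = 4 each) with a log2 fold change of 0.33 (SE 0.15, edgeR adjusted p = 1.00). Cd33, a sialic acid receptor that other myeloid cells carry, also had an unadjusted p under 0.05 in edgeR (log2 fold change 0.25, SE 0.08, adjusted p = 1.00).

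Genes of signalling and secretion had medians close to 0. Other SVF cells also use genes of these lists, and the part of those cells in the medians was not tested. The 13 genes of IgE receptor signalling had a median log2 fold change of 0.05 with 8 above 0, and the kinase Syk, the most abundant, was at 0.05 (SE 0.14). The 9 tested genes of the Kit pathway and mast cell lineage had a median of 0.10 with 7 above 0; Cbl, a ubiquitin ligase that acts on Kit, was the most abundant and was at 0.04 (SE 0.09). The 10 genes of granule formation and release had a median of 0.07 with 7 above 0, and the membrane protein Cd63 was at 0.08 (SE 0.13). Single genes lay farther from 0 than these medians. The granule list ran from -0.33 for Rab27a (SE 0.20) to 0.37 for Slc18a2 (SE 0.21). The Kit list ran from -0.02 to 0.35, the latter for Gata2 (SE 0.17), and the IgE receptor list from -0.16 to 0.18.

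The 7 genes of lipid mediator synthesis had a median log2 fold change of -0.01 with 3 above 0. Hpgds was the one with an unadjusted p under 0.05, at 81.0 ± 11.4 and 103 ± 10.1 CPM (SD, n = 4 each) and a log2 fold change of 0.35 (SE 0.12, edgeR adjusted p = 1.00), and the prostaglandin synthase Ptgs2, the most abundant, was at -0.23 (SE 0.46). The 5 tested genes of histamine receptors and breakdown had a median of 0.11, and the histamine-degrading Hnmt, the most abundant, was at 0.08 (SE 0.17). Aoc1, a diamine oxidase that also degrades histamine, measured 0.496, 0.828, 1.46 and 0.991 CPM against 0.404, 0.845, 0.196 and 0.276 CPM, so the groups overlapped, with 3 to 20 counts in a mouse. Its log2 fold change of -1.10 (SE 0.50, edgeR adjusted p = 1.00) was the one below 0 in this list. The 6 tested cytokines that feed or activate mast cells had a median of 0.21 and were all above 0, with Tgfb1 at 0.05 (SE 0.08). Il13 was above 0 only by 0.0014 (SE 0.49). Il9 was at 0 in all 8 mice and Il3 had 3 counts over all mice.

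**Figure D5:**
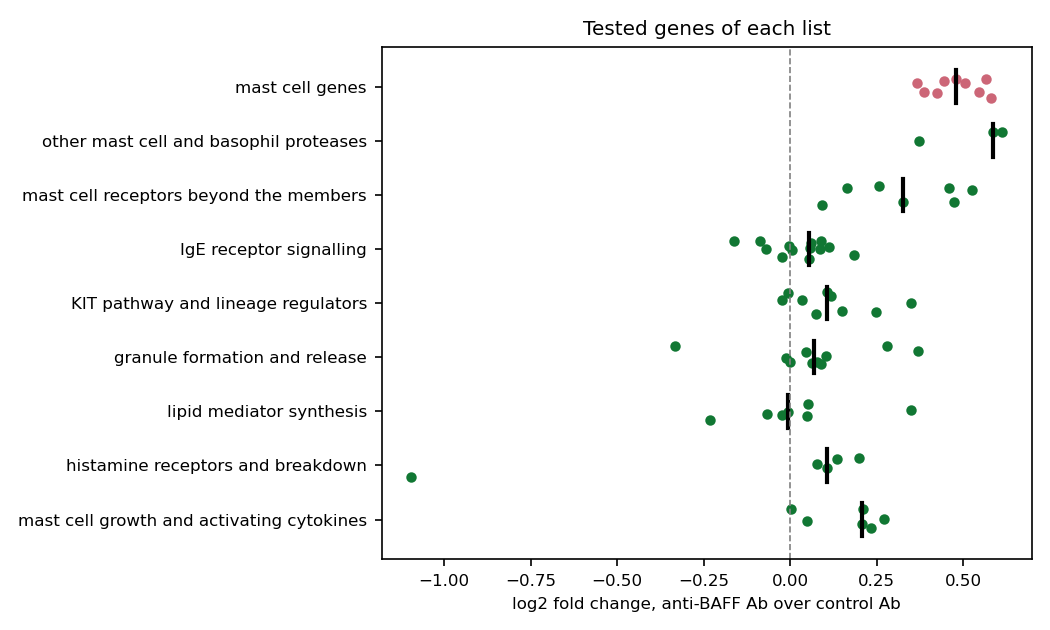
Fitted log2 fold change (horizontal axis, anti-BAFF Ab over control Ab) of each tested gene in the mast cell gene list (red) and in 8 related lists (green), with the median of each list as a black line. The 9 mast cell genes lie between 0.36 and 0.58, and the IgE receptor signalling list is centred on 0.05.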

How the data were processed

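Bulk paired-end RNA-seq of the SVF of 8 mice was analysed. The authors deposited raw read counts per gene with a gene length column; the build is mm10 per the submitters' processing notes, and the aligner, the counting tool and strand handling are not given in the sources used here. The members and lists were chosen with earlier results of these data known. Counts were tested in R 4.3.3 with edgeR 4.0.16 (filterByExpr with a minimum count of 10, TMM scaling, glmQLFit and glmQLFTest on treatment), and p-values were adjusted by Benjamini-Hochberg over the 15963 genes tested. CPM used the TMM-scaled library size, and log2 CPM a prior count of 2. FPKM was computed from the counts and the deposited length. DESeq2 1.42.0 and limma 3.58.1 on log2(FPKM + 1) were alternatives. All tests were checked on simulated data. Counting intervals cover counting error only. Replicates differed beyond sampling noise (chi-square per degree of freedom of at least 7.32). The values of control mouse 1 against the other control mice were the largest, at 54.3 to 70.2. Those other control mice differed by 7.32 to 23.0 among themselves, and the anti-BAFF Ab-treated mice by 12.4 to 33.4. Named genes were all 9 members, listed genes with an unadjusted p under 0.05, and the most abundant gene by CPM of each list. The 8 genes most like the members and defining markers of other cell types were also named. Fcer1g, the third chain of the receptor, Aoc1, Gata2, Slc18a2 and Rab27a were named after their values were seen. RefSeq sequences are of build GRCm38.p6.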

Additional observations from a re-analysis of the deposited data

Results flagged for a closer look

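Kit measured 47.2 CPM in control Ab-treated mouse 2, far below the 62.4 to 65.1 CPM of the other 3 control Ab-treated mice, a gap that passed Dixon's limit for 4 samples. Of 20 groups of 4 values examined this was the 1 that passed, and chance gives about 1 in 20. The 20 were the 9 genes and their sum, each in both treatment groups. They came from the same mice and varied together, so the chance figure is only a guide. Mouse 2 was also the lowest for the other 8 mast cell genes.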

How the results depend on the processing

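The 9 fitted differences were recomputed under 18 other settings, and 161 of 162 values kept their direction and stayed on the same side of the adjusted threshold; without mice 2 and 7 Ms4a2 turned to -0.0123, and the cause was not tested. No setting brought a mast cell gene past an adjusted p of 0.05: the smallest was 0.337, without control Ab-treated mouse 1, and DESeq2 gave 0.667 for Kit. At an unadjusted p under 0.05, DESeq2 called 6 of the 9 genes higher (0.385% of its genes) and limma 4 (0.614%). The genes called over the whole table numbered 9 with edgeR, 70 with DESeq2 (0.229% of its genes), 19 without a filter on low counts, 2 with the robust fit, 2 to 9 when each mouse was left out in turn, 3 without mice 2 and 7, and 0 without mice 2, 5 and 7 (edgeR, with 234 lower and 80 higher at an unadjusted p under 0.05); the cause of these differences was not tested. With library size alone as scaling, 35 of the 36 pairs passed by r and 19 by rho. The difference in summed CPM ranged from 260.2 to 463.6 with each mouse left out. No paired analysis was possible because the groups share no mouse number. With 4 mice a group, and 27 counts of Ms4a2 in mouse 2, the precision is lowest for Ms4a2.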
